A study of Homo sapiens with 6 samples.

Results

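Small nuclear, small nucleolar and small Cajal body RNAs were examined in HCT116, a human cell line established from a colorectal cancer, after knockdown of Matrin3 (gene MATR3), a nuclear matrix protein that binds RNA. The siCTRL group had received a non-targeting siRNA and the siMatrin3 group pooled siRNAs to Matrin3, and RNA was taken 48 h later in 3 replicates per group. All libraries come from 1 unmodified cell line and no other allele or agent is named. Members were genes whose symbol begins with SNORD, SNORA, SCARNA or RNU and a digit, and RN7SK, RMRP, RPPH1 and TERC, with a mean of at least 10 RSEM expected counts over the 6 libraries. This took 66 of the 2360 genes with such a symbol, among the 58884 gene IDs of the tables, and 1615 of the 2360 were at 0 in every library. The members were thus selected on their mean expected count over both groups, and not on the difference between groups. They comprised 10 box C/D RNAs (SNORD), 24 box H/ACA RNAs (SNORA), 9 Cajal body RNAs (SCARNA), 19 small nuclear RNAs (RNU) and 4 RNAs of other ribonucleoprotein particles. In such bulk samples, fewer cells of a kind and less RNA per cell cannot be told apart.

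Box C/D RNAs guide ribose methylation and box H/ACA RNAs guide pseudouridylation of ribosomal and small nuclear RNA, and most are cut from introns of host genes. Cajal body RNAs carry one or both kinds of guide domain and act on spliceosomal RNAs in Cajal bodies. The spliceosomal RNAs U1, U2, U4, U5 and U12 are transcribed from their own genes and act in the removal of introns. RN7SK holds the elongation factor P-TEFb inactive, RMRP is the RNA of RNase MRP, which cuts precursor ribosomal RNA, RPPH1 is the RNA of RNase P, which matures transfer RNA, and TERC is the template RNA of telomerase.

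The sequences of the RNAs on which the results turn are given first, as DNA letters on the RNA's own strand, from the GENCODE release 44 transcript with the ID that the tables list. A sequence of the listed length was found for 61 of the 66 members. RMRP (ENSG00000277027, chr9:35657754-35658017, minus strand, hg38) was the only member past the threshold and is shown whole. The capitals in RNU1-1 (chr1:16514122-16514285, minus strand) mark the bases that pair with the 5′ splice site, and those in the variants RNU1-67P (chrX:119423742-119423905) and RNU1-11P (chr6:13214056-13214219, both plus strand) mark every difference from RNU1-1. Of TERC (chr3:169764520-169765060, minus strand) bases 16 to 84 are shown, with the repeat template in capitals.
RMRP: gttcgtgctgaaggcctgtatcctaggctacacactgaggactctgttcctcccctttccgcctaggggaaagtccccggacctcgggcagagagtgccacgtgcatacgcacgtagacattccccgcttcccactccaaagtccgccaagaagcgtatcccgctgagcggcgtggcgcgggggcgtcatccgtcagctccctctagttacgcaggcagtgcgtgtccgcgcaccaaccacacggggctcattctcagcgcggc
RNU1-1: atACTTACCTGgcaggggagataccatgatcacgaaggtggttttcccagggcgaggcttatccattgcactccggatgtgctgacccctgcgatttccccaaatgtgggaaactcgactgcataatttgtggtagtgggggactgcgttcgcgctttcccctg
RNU1-67P: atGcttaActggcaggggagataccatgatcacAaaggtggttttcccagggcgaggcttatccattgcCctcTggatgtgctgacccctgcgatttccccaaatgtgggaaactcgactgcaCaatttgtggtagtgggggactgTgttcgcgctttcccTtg
RNU1-11P: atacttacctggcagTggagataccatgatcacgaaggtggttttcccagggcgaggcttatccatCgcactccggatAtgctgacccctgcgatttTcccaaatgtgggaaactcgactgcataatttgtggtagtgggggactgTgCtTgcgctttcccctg
TERC: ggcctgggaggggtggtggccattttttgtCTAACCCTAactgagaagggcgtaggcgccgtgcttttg

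The libraries held between 4556658 and 8400412 expected counts, of which the members took 2.57% to 2.81%. MATR3 was at 363, 343 and 330.2 CPM (counts scaled to library size with TMM factors) in siCTRL and at 72.4, 67.9 and 71.4 in siMatrin3, which left 20.4% (log2 fold change -2.29 ± 0.06, SE, edgeR adjusted p = 7.58e-11). Markers of colon epithelium summed to 1576 to 1897 CPM, with 2 of 6 tested called and CDX1 at 0 in every library. Those of blood summed to at most 0.549 CPM, those of fibroblasts to 19.3 to 23.2 CPM and those of neural cells to 42.3 to 51.8 CPM, with 1 of 2 tested called (MAP2, log2 fold change -0.74). The part of these markers in the results was not tested.

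The first question was which of these RNAs differed between siMatrin3 and siCTRL. In the main test RMRP was called higher, and no member was called lower. edgeR's quasi-likelihood test, fitted over 14334 genes with Benjamini-Hochberg adjustment, called 1 of the 65 tested members higher, against 5.68% of all genes, and 0 lower, against 5.18% (10.9% in either direction). At an unadjusted p under 0.05, 3 members passed, against 25.1% of all genes. These were RMRP and RNU1-11P above 0 and SCARNA2 below 0. DESeq2 and limma also called 0 members lower, in fits that called 1011 and 149 of the 14334 genes in either direction. The groups did not overlap in 2 members with siMatrin3 higher, RMRP and RNU1-11P, against 15.0% of all genes. They did not overlap in 5 of the tested members with siMatrin3 lower (SCARNA2, SNORD10, SNORD15B, SNORD104 and SNORA74B), against 14.7%, nor in the untested RNU5E-6P.

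The member fold changes were centred near 0. The log2 fold change was above 0 in 39 members and below 0 in 26, with a median of 0.06 and a range from -0.64 to 0.88, beside a median of 0.00 over all genes tested. The 95% interval lay within 0.25 of 0 on the log2 scale for 14 of the 65 members, within 0.5 for 33 and within 1 for 50. Intervals were narrower in the median where counts were high, with exceptions such as SNORD3A (half-width 0.24 at a mean of 9199 counts). The half-width of the interval had a median of 0.15 in the 13 members with the most counts and 0.68 in the 36 with a mean under 100, which corresponds to 1.60-fold. Smaller changes were not detectable at this precision in many of the latter. The 6 identical copies of U1, described below as 1 measurement, are each counted among the 39, the 14 and the 13 members. The median of 0.15 is their own half-width.

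**Figure D1:**
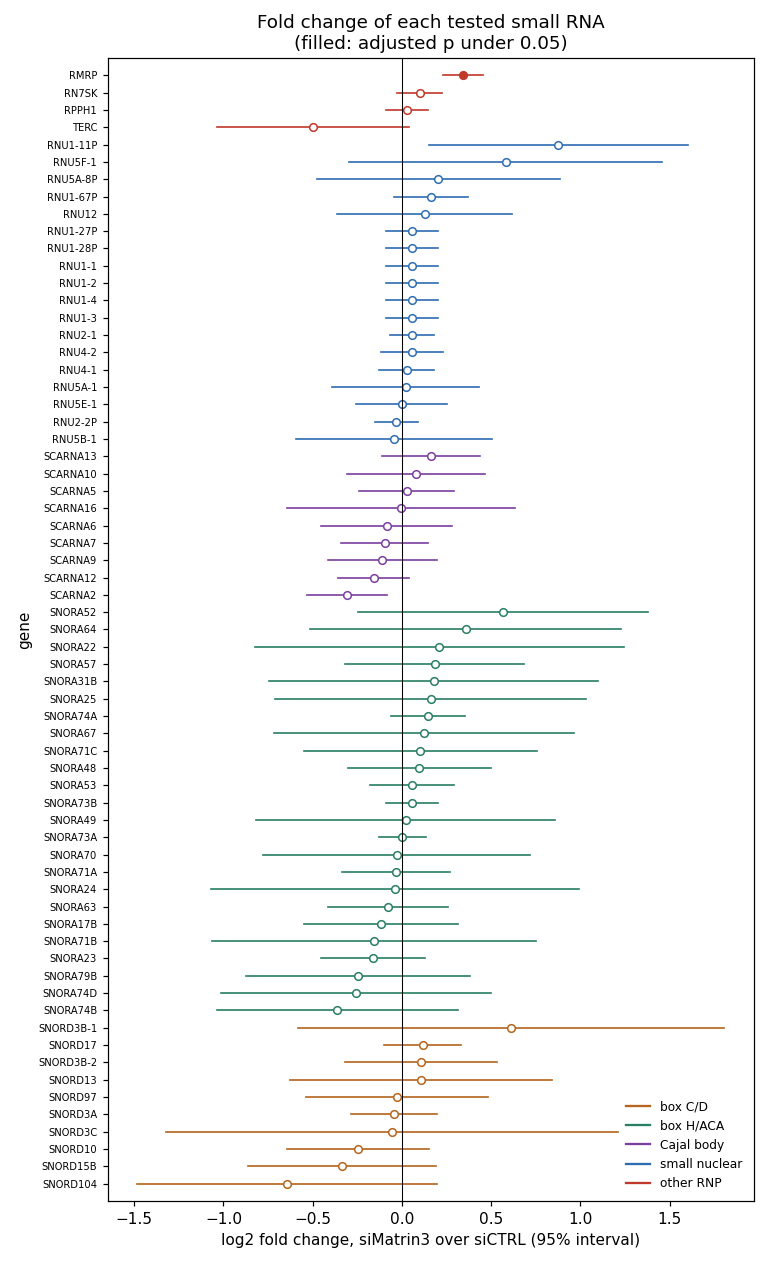
Log2 fold change of siMatrin3 over siCTRL (x axis) for each of the 65 tested members (y axis), coloured by class. Points are edgeR estimates, lines their 95% intervals and filled points an adjusted p under 0.05, which RMRP alone reached, at 0.34.

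Members took 2.57%, 2.74% and 2.67% of the counts of the siCTRL libraries and 2.74%, 2.73% and 2.81% of those of siMatrin3. The means were 2.66% ± 0.087 and 2.76% ± 0.046 (SD, n = 3 each), and the ranges overlapped (exact two-sided permutation p = 0.3). RN7SK, RMRP and RPPH1 together held 83.6% to 86.0% of the member counts. By class, the share in Cajal body RNAs was 0.0284% ± 0.0013 in siCTRL and 0.0244% ± 0.0027 in siMatrin3, and that in the 4 other particle RNAs was 2.24% ± 0.070 and 2.36% ± 0.020. Both gave an exact permutation p = 0.1, the smallest that 3 against 3 libraries allow, and 0.25 after adjustment over the 5 classes. Without the members that share reads, the difference of the Cajal body share was -0.000522 percentage points, beside -0.00396 with them. The remaining 3 classes gave exact permutation p values from 0.4 to 0.6.

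RMRP was at 6277, 6295 and 5848 CPM in siCTRL and at 7926, 7677 and 7737 in siMatrin3. Every siMatrin3 library was above every siCTRL library. The means were 6139.8 ± 252.9 and 7780.0 ± 129.8 CPM (SD, n = 3 each), a 1.27-fold rise with a 95% interval from 1.17 to 1.37 (log2 fold change 0.34 ± 0.05, SE, edgeR adjusted p = 0.00131). RMRP has no annotated gene on the same strand over it and no host. It stayed past the threshold when each library was left out in turn and with RSEM effective lengths as an offset (adjusted p = 0.0119). On log2(TPM + 1) values, which RSEM scales within a library, RMRP did not pass limma's test (log2 difference 0.23, adjusted p = 0.211).

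The tables also hold ENSG00000269900, an ID with no entry in the annotation used, at a mean of 10019 counts. Its length is close to that of RMRP, and whether it shares reads with RMRP could not be checked without its sequence. It was at 1453, 1622 and 1572 CPM in siCTRL and at 1577, 1363 and 1767 in siMatrin3, so that the groups overlapped. With both IDs summed, the level was 7730, 7916 and 7420 CPM in siCTRL and 9503, 9039.9 and 9505 in siMatrin3, and the rise was still called (log2 fold change 0.28 ± 0.05, SE, edgeR adjusted p = 0.00427, in a fit that called 5.73% of all genes higher).

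RPPH1, the closest relative of RMRP in function, was at 5238, 5650.4 and 5442 CPM in siCTRL and at 5528, 5352 and 5778 in siMatrin3. These ranges overlapped, and the log2 fold change was 0.03 with an interval from -0.09 to 0.15 (edgeR adjusted p = 0.798). It lies in an exon of the long noncoding RNA ENSG00000259001, and the sum of both had a log2 fold change of 0.03 as well. RN7SK, the member with the most counts, was at 9839, 10869 and 10265 CPM in siCTRL and at 10432, 11539 and 11205 in siMatrin3. Its groups overlapped as well, with a log2 fold change of 0.10 and an interval from -0.03 to 0.23 (adjusted p = 0.329).

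TERC was low, at 9.28, 16.3 and 9.33 CPM in siCTRL and at 11.1, 7.49 and 6.71 in siMatrin3. Control replicate 2 stood above the rest, and the log2 fold change of -0.50 had an interval from -1.04 to 0.04 (edgeR adjusted p = 0.237). A second gene model of the telomerase RNA, Telomerase-vert (ENSG00000277925), overlaps TERC on the same strand and held most of the reads of the pair. Only 9.19% of their summed counts stood in TERC. Telomerase-vert was at 82.2, 106 and 97.0 CPM in siCTRL and at 108, 111 and 110.3 in siMatrin3. The sum of both had a log2 fold change of 0.14, with an interval from -0.05 to 0.32 (edgeR adjusted p = 0.358), so that the sign turned and neither value passed.

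**Figure D2:**
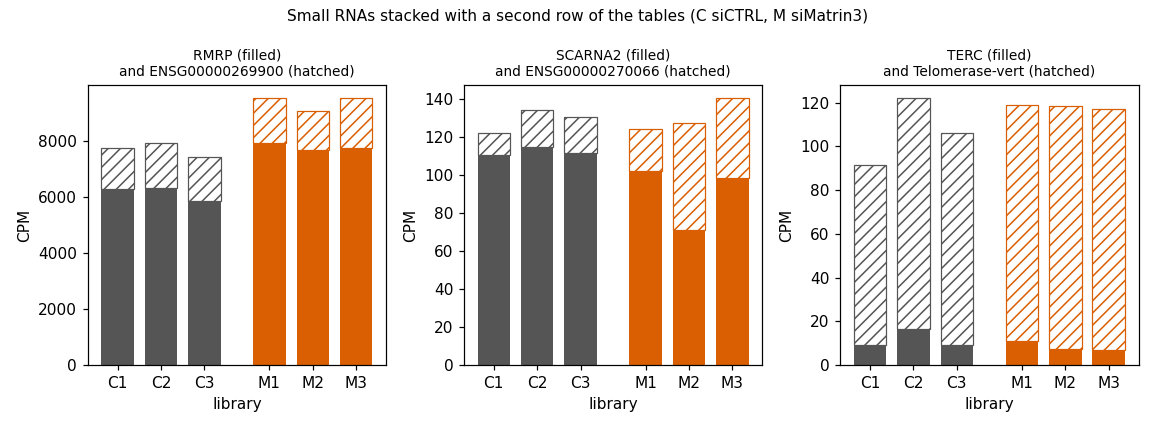
CPM (y axes, linear from 0) of RMRP, SCARNA2 and TERC (filled) in each library (x axes), stacked with ENSG00000269900, ENSG00000270066 and Telomerase-vert (hatched). The filled bars of SCARNA2 are lower in siMatrin3 while the full bars, at 122 to 140.2 CPM, overlap between the groups.

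Among the small nuclear RNAs, no member passed in either direction. Of 18 tested, 15 had a log2 fold change above 0 and 3 below, but 6 of these are copies of U1 with 1 sequence and equal expected counts in every library. RNU1-1, RNU1-2, RNU1-3, RNU1-4, RNU1-27P and RNU1-28P, and also the ID ENSG00000275405, which has no annotation entry, each stood at 170.5, 168 and 186 CPM in siCTRL and at 177, 199 and 170.3 in siMatrin3. RSEM spreads reads that match several copies by estimate, so these rows are 1 measurement. Their sum, 1225 ± 68.8 CPM in siCTRL and 1275 ± 106 in siMatrin3 (SD, n = 3 each), gave a log2 fold change of 0.06 with an interval from -0.08 to 0.20 (edgeR adjusted p = 0.641).

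The U1 variants can be told from these copies by sequence. RNU1-67P differs from RNU1-1 at 8 of 164 positions, counted from 1 at the 5′ end, and 2 of them, A3G and C8A, fall in the stretch that pairs with the 5′ splice site. The letters ACTTACCTG, searched on the RNA's own strand, were present in 7 of the 8 U1 members, the exception being RNU1-67P, and in 36 of the 116 annotated U1 genes. RNU1-67P was at 71.6, 75.1 and 70.4 CPM in siCTRL and at 68.0, 91.4 and 85.6 in siMatrin3 (log2 fold change 0.16, edgeR adjusted p = 0.315). Replicate 1 of siMatrin3 was the lowest of all libraries, and without it RNU1-67P passed at 0.28 on the log2 scale. RNU1-11P differs from RNU1-1 at 7 positions, none of them in that stretch, and was at 1.73, 1.53 and 1.76 CPM in siCTRL and at 2.61, 3.83 and 2.81 in siMatrin3. The groups were separate, but at 15.1 counts on average its log2 fold change of 0.88 had an interval from 0.15 to 1.60 (edgeR adjusted p = 0.118). Both lie in introns, of SLC25A43 and of PHACTR1.

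The remaining spliceosomal RNAs were measured with narrow intervals where counts were high. RNU2-2P, the U2 gene with the most counts, was at 338, 364 and 344 CPM in siCTRL and at 319, 352 and 353 in siMatrin3 (log2 fold change -0.03, interval from -0.15 to 0.09). It shares 95.8% of its bases with RNU2-1, which was at 138 ± 5.22 and 144 ± 5.01 CPM (SD, n = 3 each). RNU4-1 was at 69.8 ± 4.68 and 71.4 ± 2.71 CPM, RNU5E-1 at 19.4 ± 1.25 and 19.3 ± 1.78 CPM, and RNU12 of the minor spliceosome at 5.25 ± 0.654 and 5.79 ± 0.390 CPM. In all of these genes the groups overlapped, with adjusted p from 0.604 to 0.993 by edgeR. RNU12 held 54.0% of the summed counts of itself and the overlapping ENSG00000270022, and this sum had a log2 fold change of 0.10. The summed level of each kind (8 U1, 2 U2, 2 U4, 6 U5 and 1 U12 members) gave exact permutation p values from 0.3 to 1. RNU5E-6P, a copy of U5 with a mean of 11.2 counts, was the only member not tested, since it did not pass edgeR's filter on low counts. It was at 1.51, 2.82 and 2.99 CPM in siCTRL and at 1.37, 0.871 and 0.780 in siMatrin3, so that every siMatrin3 library was lower, and a fit without the filter gave a log2 difference of -1.26 that did not pass (edgeR adjusted p = 0.0984).

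The kinds of small nuclear RNA also differed in whether any single gene reached the count limit. No gene of U6, U7, U11, U4atac or U6atac reached a mean of 10 counts. The highest were RNU6ATAC with 6.83 counts, RNU6-26P with 5.67, RNU11-2P with 2.83, RNU4ATAC16P with 1.5 and RNU7-18P with 0.667. Long genes were members more often than short ones. Of the genes with a member-type symbol that does not end in a pseudogene suffix, 1 of 264 under 100 bases was a member, 27 of 185 from 100 to 150 bases, 9 of 19 from 150 to 200 bases and 22 of 32 of 200 bases or more. These counts describe the choice of members, which used the counts themselves. Reads were 50 bases long, and the part of library size selection was not tested. Just inside the limit stood SNORA71B with a mean of 11 counts and RNU5E-6P with 11.2, and just outside it RNU4-25P with 9.57 and SNORA27 with 9.47.

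Per length, on the authors' TPM scale, the order of levels was RN7SK (37995 ± 1553 TPM in siCTRL, SD, n = 3), RMRP (29320.3 ± 831), RPPH1 (19683 ± 618), the 8 U1 members summed (10049 ± 671) and SNORD3A (8789 ± 562). Neighbours in this order lay further apart than their SDs, for the IDs as listed. RMRP is given here without ENSG00000269900, and it held 81.6% of the summed counts of the pair. The U1 sum leaves out ENSG00000275405. The order may thus depend on how reads were split between IDs. RSEM divides by an effective length shorter than the RNA, which raises the TPM of short genes. RNU2-2P followed at 2519.6 ± 69.1 TPM and SNORA73A at 1417 ± 92.8 TPM.

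**Figure D3:**
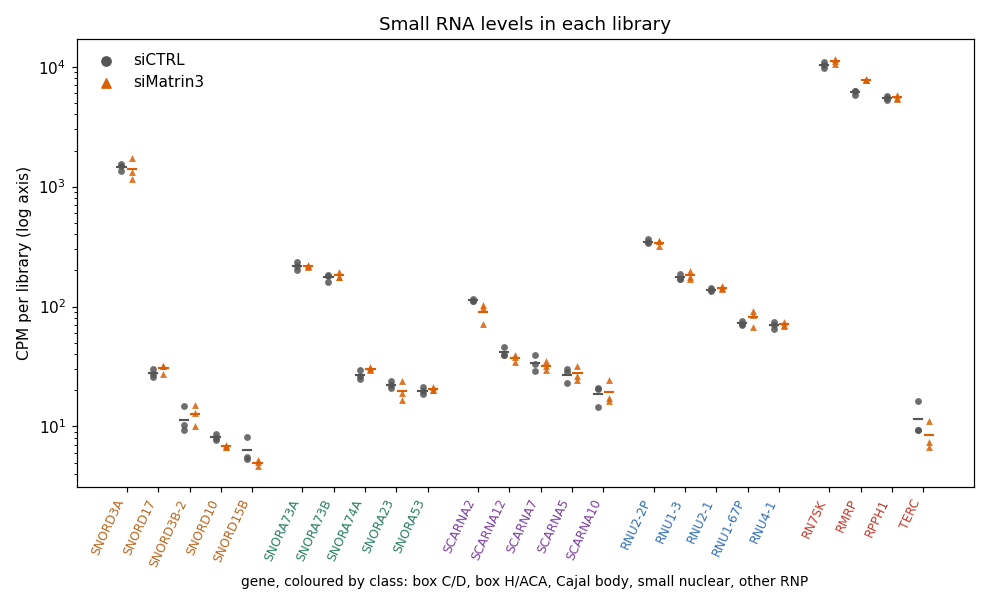
CPM per library (y axis, log scale) of the 5 members of each class with the most counts (all 4 in the last class, and 1 of the 6 identical U1 copies). Circles are siCTRL libraries, triangles siMatrin3 libraries and bars their means, and RMRP is the only gene shown that passed the threshold.

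No box C/D RNA passed in either direction, with 4 of 10 above 0 and 6 below and a median log2 fold change of -0.04. SNORD3A, which encodes U3, the RNA that guides early cleavage of the ribosomal RNA precursor and not methylation, held most of the counts of this class. It was at 1347, 1535 and 1478 CPM in siCTRL and at 1336, 1146 and 1742 in siMatrin3. The siMatrin3 libraries spanned the siCTRL range on both sides, and the log2 fold change was -0.05 with an interval from -0.29 to 0.19 (edgeR adjusted p = 0.846). SNORD3B-1, SNORD3B-2 and SNORD3C are further U3 genes whose reads may be shared with it, and SNORD3C was at 0 in siCTRL replicate 1. All 4 summed to 1474 ± 104 CPM in siCTRL and 1432 ± 306 in siMatrin3 (adjusted p = 0.861).

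SNORD17, in an intron of SNX5, had the most counts of the class after SNORD3A, at 26.1, 30.1 and 27.3 CPM in siCTRL and 27.6, 31.9 and 32.1 in siMatrin3 (log2 fold change 0.12, edgeR adjusted p = 0.520). It is shown because it carries both class motifs, TGATGA (C box) and CTGA (D box), here in capitals.
SNORD17: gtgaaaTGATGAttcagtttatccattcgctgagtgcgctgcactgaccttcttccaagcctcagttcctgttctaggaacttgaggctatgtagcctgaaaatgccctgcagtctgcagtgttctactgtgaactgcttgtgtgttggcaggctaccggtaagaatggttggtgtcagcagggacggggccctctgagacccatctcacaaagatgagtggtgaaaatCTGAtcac
TGATGA stood in the first 25 bases of 3 of the 6 SNORD members with a sequence and of 68.6% of the 290 annotated SNORD genes, and CTGA in the last 20 bases of 5 of the 6 and of 93.8%. SNORD10 lies in an intron of the canonical EIF4A1 transcript and overlaps an exon of another. It was at 7.98, 7.76 and 8.63 CPM in siCTRL and 6.72, 6.79 and 7.02 in siMatrin3. SNORD15B, in an intron of RPS3, was at 5.39, 5.52 and 8.10 CPM and 4.66, 5.05 and 5.30. SNORD104, in an intron of SNHG25, was at 2.16, 2.23 and 2.47 CPM and 0.823, 1.92 and 1.72. In each of the 3 every siMatrin3 library was below every siCTRL library, but none passed (log2 fold changes of -0.24, -0.34 and -0.64, adjusted p of 0.455, 0.431 and 0.336 by edgeR).

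No box H/ACA RNA passed in either direction, with 14 of 24 above 0 and 10 below and a median log2 fold change of 0.04. SNORA73A and SNORA73B (U17), which take part in cleavage of the ribosomal RNA precursor, were the most abundant. SNORA73A was at 201, 233 and 216 CPM in siCTRL and 212, 223 and 219 in siMatrin3, and SNORA73B at 159, 181 and 184 and at 175.2, 177 and 196. Both pairs of groups overlapped (log2 fold changes of 0.00 and 0.06, interval half-widths of 0.13 and 0.15). They share 93.2% of their bases and lie in introns of the canonical transcripts of RCC1 and SNHG3. SNORA73A overlaps an exon of another SNHG3 transcript. The letters ACA stood in the last 8 bases of 21 of the 23 SNORA members with a sequence and of 89.9% of the 149 annotated SNORA genes. SNORA23, in an intron of IPO7, was at 24.2, 20.9 and 22.0 CPM in siCTRL and at 16.7, 19.2 and 23.9 in siMatrin3 (log2 fold change -0.16, edgeR adjusted p = 0.510). SNORA52 lies in an intron of the canonical RPLP2 transcript and overlaps an exon of another. It was at 1.94, 1.06 and 1.76 CPM and at 2.33, 2.61 and 1.87 (log2 fold change 0.57, edgeR adjusted p = 0.391).

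SNORA74A and SNORA74D lie in introns of SNHG4 and of a longer gene model of MATR3 (ENSG00000280987, chromosome 5, 139273752 to 139331671), which begins upstream of the main MATR3 model. That model fell with the knockdown, from 12.1, 15.4 and 17.4 CPM in siCTRL to 5.08, 6.96 and 1.72 in siMatrin3 (log2 fold change -1.73 ± 0.31, SE, edgeR adjusted p = 0.00329), and may share reads with the main model. SNORA74A was at 24.8, 29.9 and 26.6 CPM in siCTRL and at 29.5, 30.3 and 31.2 in siMatrin3. The groups overlapped, and its log2 fold change of 0.15 had an interval from -0.06 to 0.35 (edgeR adjusted p = 0.387). SNORA74D was at 2.37, 1.76 and 2.47 CPM and at 1.78, 2.09 and 1.56 (log2 fold change -0.26, interval from -1.01 to 0.50). SNHG4 was at 89.6, 82.3 and 81.0 CPM and at 89.4, 85.5 and 90.3 (log2 fold change 0.07, adjusted p = 0.538). The interval of SNORA74A does not reach the -1.73 of the longer MATR3 model. The siRNAs were directed at MATR3 itself, and whether SNORA74A follows this host was not tested. Relative to SNHG4, SNORA74A differed by 0.09 on the log2 scale, and the groups overlapped (exact permutation p = 0.6). Both RNAs also lie within the span of SIL1 on the opposite strand, and whether reads were counted by strand is not known.

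Of the 9 Cajal body RNAs, 3 had a log2 fold change above 0 and 6 below, with a median of -0.09, and none passed. SCARNA2 (chromosome 1, 109100193 to 109100612, plus strand), the member of this class with the most counts, was at 110.5, 115 and 112 CPM in siCTRL and at 102, 71.0 and 98.1 in siMatrin3. Every siMatrin3 library was below every siCTRL library, and replicate 2 was the lowest. This gave a log2 fold change of -0.31 ± 0.10 (SE), which did not pass (edgeR adjusted p = 0.0756). With the replicate number as a block it passed (adjusted p = 0.0269, in a fit that called 15.8% of all genes). Without siMatrin3 replicate 2 the value was -0.17.

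SCARNA2 lies on the same strand within an exon of ENSG00000270066, which is annotated as a long noncoding RNA. Both begin at the same base and ENSG00000270066 ends at 109100619, so that nearly all of its span is SCARNA2 and reads may be shared. The counts assigned to ENSG00000270066 rose, from 11.7, 19.0 and 19.0 CPM in siCTRL to 22.2, 56.4 and 42.1 in siMatrin3. The log2 fold change was 1.22 ± 0.27 (SE, edgeR adjusted p = 0.0121, and 0.0706 with effective lengths as an offset). ENSG00000270066 was highest in siMatrin3 replicate 2, where SCARNA2 was lowest. The sum of both was at 122, 134 and 131 CPM in siCTRL and at 124, 127 and 140.2 in siMatrin3. These values overlapped, with a log2 fold change of 0.02 and an interval from -0.13 to 0.16 (edgeR adjusted p = 0.920, and 0.874 with the block). The difference of SCARNA2 was therefore not seen in the reads of the locus as a whole.

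SCARNA12 was at 39.3, 45.8 and 39.4 CPM in siCTRL and at 39.6, 34.5 and 38.2 in siMatrin3 (log2 fold change -0.16, edgeR adjusted p = 0.315). SCARNA7 was at 33.7 ± 5.05 and 32.2 ± 2.87 CPM, and SCARNA13 at 15.6 ± 1.04 and 17.6 ± 1.66 CPM (SD, n = 3 each), and the groups overlapped in both. SCARNA10 held 28.1% of the summed counts of itself and an overlapping small RNA ID. This sum had a log2 fold change of 0.11 (edgeR adjusted p = 0.380).

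The next question was whether intronic members moved with their host genes. An annotated gene on the same strand held 48 of the 66 members, protein-coding for 34 and a long noncoding RNA for 14. In the canonical transcript of the host, 43 were intronic and 5 exonic, and 24 overlapped an exon of some host transcript. Where several genes held a member, 1 of them, the one with the most counts, was taken as its main host. In 41 intronic members with a tested main host, spread over 33 host genes, the edgeR fit called 1 host higher, against 5.68% of all genes, and 4 lower, against 5.18%, and none of their members was called. With the replicate block 4 hosts were higher, with NCAPD2, EIF4A1 and ATP6V0E1 beside IPO7, and 4 were lower. That fit called 15.8% of all genes in either direction. The members and hosts had log2 fold changes of the same sign in 24 of 41. Across these 41 the log2 fold changes had Pearson's r = -0.06 and Spearman's rho = 0.07, given as a description since members of 1 host and all values of 1 library are not independent.

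The 4 main hosts that fell carry Cajal body RNAs, and the longer MATR3 model, which is not the main host of SNORA74A and SNORA74D, fell as well. Other main hosts of Cajal body RNAs, KPNA4, SNHG10 and NCAPD2, were not called. The main host of SCARNA2 by the rule used, ENSG00000270066, is a model of nearly the same span that holds it in an exon. The counts assigned to ENSG00000270066 rose (log2 fold change 1.22, edgeR adjusted p = 0.0121). The sum of both had a log2 fold change of 0.02 (edgeR adjusted p = 0.920). PHB2, a prohibitin of the inner mitochondrial membrane, was at 248 ± 4.60 CPM in siCTRL and 167 ± 7.54 in siMatrin3 (SD, n = 3 each). Its log2 fold change was -0.57 with an edgeR adjusted p of 5.04e-05, while SCARNA12, in an intron of its canonical transcript, had -0.16. SCARNA12 overlaps an exon of another PHB2 transcript, so that reads may be shared. ATG16L1, an autophagy protein, fell by 0.30 on the log2 scale, and its SCARNA5 and SCARNA6 had 0.03 and -0.09. CEP295, a centriole protein, fell by 0.27 with -0.11 for SCARNA9, and SEC14L1 fell by 0.30 with 0.00 for SCARNA16. IPO7, a nuclear import receptor, rose by 0.17 and SNORA23 had -0.16. The adjusted p values of ATG16L1, CEP295, SEC14L1 and IPO7 ranged from 0.0282 to 0.0480 by edgeR. Relative to its host, SCARNA12 differed by 0.42 on the log2 scale and SCARNA5 by 0.34, without overlap of the groups. SCARNA6, SCARNA9 and SCARNA16 differed by 0.25, 0.18 and 0.25 and SNORA23 by -0.35 relative to theirs, and these groups overlapped. The hosts were picked because they had changed, so these ratios are a description. Their exact permutation p ranged from 0.1, the smallest possible here, to 0.4. After adjustment over the 9 ratios to called hosts it was 0.18 to 0.4, and no conclusion is drawn from it. With effective lengths as an offset PHB2 still passed (edgeR adjusted p = 0.00450) and the 4 other hosts did not pass, with values of 0.03 for ATG16L1, -0.05 for CEP295, -0.15 for SEC14L1 and 0.37 for IPO7.

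**Figure D4:**
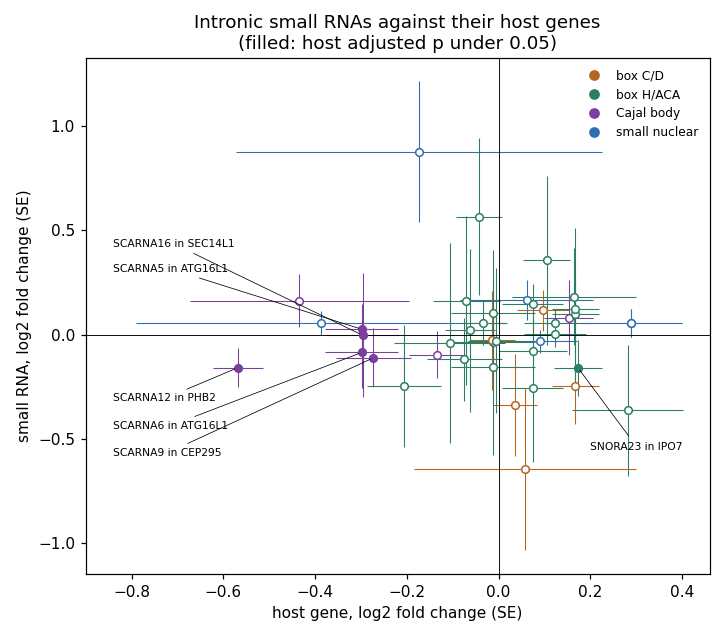
Log2 fold change (siMatrin3 over siCTRL) of 41 intronic members (y axis) against that of their host genes (x axis), with SE as error bars and colours by class. Filled points mark the 6 members whose host passed the threshold, 5 of them Cajal body RNAs to the left of 0 with member values from -0.16 to 0.03.

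Hosts of several members gave repeated readings. EIF4A1, an RNA helicase of translation initiation, was at 805 ± 38.6 and 905 ± 6.77 CPM (log2 fold change 0.17, edgeR adjusted p = 0.0509, and 0.0157 with the replicate block), and its SNORA48, SNORD10 and SNORA67 had 0.10, -0.24 and 0.12. SNHG17 was at 45.6 ± 3.60 and 44.8 ± 4.21 CPM, and its SNORA71A, SNORA71B and SNORA71C had -0.03, -0.16 and 0.10. None of these 6 members passed.

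The proteins that bind, build or trim these RNAs were read from a list of 83 genes, all of them tested. In siMatrin3 5 rose, against 5.68% of all genes, and 3 fell, against 5.18%, with a median log2 fold change of 0.04. The genes that rose were SNU13, a core box C/D protein (0.20), GEMIN4 (0.26) and GEMIN5 (0.21), subunits of the complex that loads Sm rings, PARN, a nuclease that trims small RNA ends (0.28), and MEPCE, which caps RN7SK (0.33). Those that fell were NOPCHAP1, a snoRNP assembly factor (-0.37), ICE2, which acts in small nuclear RNA transcription (-0.39), and INTS8, a subunit of the Integrator complex that cuts small nuclear RNA ends (-0.26). Their adjusted p values ranged from 0.00405 to 0.0485 by edgeR. MEPCE was at 39.7 ± 2.72 and 49.5 ± 4.20 CPM while its partner LARP7 was at 31.5 ± 2.47 and 31.1 ± 4.24 CPM (SD, n = 3 each). With the replicate number as a block 8 rose and 4 fell, in a fit that called 15.8% of all genes in either direction. With effective lengths as an offset none passed, where 204 of all 14334 genes did. DESeq2 called 0 that rose, and 1011 of the 14334 genes in either direction. At most 1 rose when any library other than siMatrin3 replicate 2 was left out, in fits that called 707 to 1108 genes. Of the 11 proteins of RNase P and RNase MRP, the partners of RPPH1 and RMRP, 0 passed, and 2 of 11, RPP38 (0.32) and RPP21 (0.37), had an unadjusted p under 0.05, against 25.1% of all genes.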

How the data were processed

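RNA-seq of HCT116 cells at 48 h, 3 libraries each of siCTRL and siMatrin3, was analysed at the gene level. The study's methods describe TRIzol extraction and ribosomal RNA depletion, and the labels name an mRNA kit. Per the labels, the authors used cutadapt, TopHat and RSEM on hg19. The annotation release is not given in the sources used here, nor is the use of strand. The authors deposited RSEM expected counts (estimated counts, no normalization between libraries), TPM scaled within each library, and effective lengths. FPKM was not used.

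Expected counts were rounded, filtered with filterByExpr (minimum count 10, minimum total 15) and scaled by TMM. Groups were compared with edgeR 4.0.16 in R 4.3.3 (quasi-likelihood, Benjamini-Hochberg over all genes, threshold 0.05, two-sided). The test was checked on simulated data. Single values were compared by exact permutation. Log2 ratios of a member to its host used CPM + 0.5. Alternatives included DESeq2 1.42.0, limma 3.58.1 on log2(TPM + 1), other scalings and filters, and leaving out each library. Sums of overlapping rows were chosen after seeing the data.

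IDs were matched to GENCODE release 44 on hg38 (58472, 99.3%), so that positions are those of hg38, and sequences were taken by transcript ID. The p-values measure the spread between cultures of 1 line. Deviations from the group mean correlated weakly between same-numbered libraries of both groups (r = 0.107, 0.104 and 0.157). Differently numbered libraries had r from -0.0842 to -0.0238. Deviations are taken from the mean of the same libraries, so these values are not independent. The comparison treats the numbers in the labels as pairs. Genes were named by a rule: MATR3, called members, and the 3 members of each class with the most counts and the 3 with the lowest p. The rule also took RN7SK, RPPH1, TERC and the top gene of each kind of small nuclear RNA. It further took hosts of 3 or more members, called proteins, and members next to the count limit. All others were named after their values were seen. The members, the protein list and the markers were chosen with earlier results of these data known.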

Additional observations from a re-analysis of the deposited data

How the results depend on the processing

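Named members kept their call in 426 of 432 comparisons over 25 members, with 5 that newly passed and 1 that was lost. The count of members higher was 0 on log2(TPM + 1) values. The count of members lower was 1 (SCARNA2) with the replicate block, with no count filter and with at least 10 CPM in 3 libraries. Leaving out each library in turn gave 1 to 2 members higher and 0 to 1 lower, and both moved without siMatrin3 replicate 1 (RNU1-67P and SCARNA2). With pairing by the replicate block no other member changed its call. The difference in the share of counts of Cajal body members was -0.000522 percentage points without the members that share reads, and -0.00396 with them. Of the protein list, 0 rose with DESeq2, effective lengths, TPM or an adjusted p under 0.01, and 8 rose with the block, also after rows were summed. Of all 14334 genes, DESeq2 called 1011, effective lengths 204, TPM 149 and the block 2259. Leaving out a library gave 0 to 5 that rose, with 5 only without siMatrin3 replicate 2 and at most 1 without any other. Those fits called 707 to 1256 genes. With effective lengths or TPM 0 fell, at an adjusted p under 0.01 1 fell, and leaving out a library gave 1 to 3 that fell, with 1 without siCTRL replicate 1 or siMatrin3 replicate 3. The cause was not tested. Intervals were wide in many members under 100 counts.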
